A study of Homo sapiens with 2 samples.

Results

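Genes of sterol synthesis, sterol transport and lipid desaturation were compared after *REG4* siRNA treatment of HT29, a human cell line established from a colon cancer. They were *HMGCS1* and *MSMO1*, which encode enzymes of cholesterol synthesis, *STARD4*, which encodes a sterol carrier, *SCD*, which encodes a fatty acid desaturase, and *CYB5A*, which encodes the electron carrier cytochrome b5. The 5 genes had been chosen by name, with their differences in these data known. They were read from 6 probe sets, the groups of short probes that each measure 1 transcript cluster, and made up 5 of the 14812 genes with a named probe set. The siREG4 array held RNA of HT29 cells transfected with an siRNA against *REG4*, the gene of a small lectin-like protein that cells release. The siControl array held RNA of HT29 cells transfected with a control siRNA. Nothing else was stated to differ between them, and neither the siRNA sequence used for the array nor the time after transfection is given in the sources used here. The treatment label of the siREG4 array names GATA6 in place of *REG4*, and the array was assigned by its title. The knockdown itself was not analysed here, since none of the named probe sets carried the symbol *REG4*.

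There was 1 array per group, so no difference below has a replicate check, and no p-value or standard error was computed. The deposited table is centred per probe set, and the value of the siREG4 array is the negative of the value of the siControl array within 1e-06. Differences are given as siREG4 minus siControl on a log2 scale, with the log base taken as 2. Signal levels are not kept, so the colon epithelial identity of the cells could not be checked against marker levels, and the genes cannot be ordered by abundance. In bulk RNA of this kind, fewer cells of a type and less RNA per cell cannot be told apart. The 84 measured keratin-associated protein genes, hair genes that colon cells are not known to use, ran from -0.22 to 0.30 with an SD of 0.09 across genes. They describe background probe sets and give no error for expressed genes.

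Cholesterol is built in the endoplasmic reticulum from acetyl-CoA. HMG-CoA synthase acts early in the mevalonate pathway, its isoprenoid product is joined into squalene, and squalene is cyclised to lanosterol, which is trimmed and reduced to cholesterol. Sterol-regulated transcription factors of the SREBP family drive most of these genes when membrane sterol is low. SREBP is escorted by SCAP and held back by the INSIG proteins, and its target promoters usually carry binding sites for the partner factors NF-Y, which reads the CCAAT box, and Sp1, which reads a GC-rich box. SCD places a double bond into saturated fatty acids, and its activity, like that of the sterol oxidase MSMO1, depends on electrons that cytochrome b5 passes on from NADH.

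The promoters of the 5 genes are shown so that short motifs can be compared between the genes that were higher and those that were lower. Each RefSeq sequence (GRCh38.p14) runs from 250 bases before the annotated start site to 50 bases from it, 5′ to 3′ on the strand of the gene. Capitals mark the CCAAT boxes, read as CCAAT on the strand of the gene or ATTGG where the box lies on the other strand. The windows are chr5:43313363-43313662 (minus strand) for *HMGCS1*, chr4:165327419-165327718 (plus strand) for *MSMO1*, chr5:111512486-111512785 (minus strand) for *STARD4*, chr10:100346983-100347282 (plus strand) for *SCD* and chr18:74291914-74292213 (minus strand) for *CYB5A*.
HMGCS1: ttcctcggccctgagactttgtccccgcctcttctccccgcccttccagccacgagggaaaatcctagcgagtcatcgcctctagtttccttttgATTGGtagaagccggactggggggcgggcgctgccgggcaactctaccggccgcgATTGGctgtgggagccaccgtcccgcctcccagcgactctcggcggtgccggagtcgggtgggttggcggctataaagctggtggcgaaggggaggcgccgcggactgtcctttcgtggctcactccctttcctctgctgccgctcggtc
MSMO1: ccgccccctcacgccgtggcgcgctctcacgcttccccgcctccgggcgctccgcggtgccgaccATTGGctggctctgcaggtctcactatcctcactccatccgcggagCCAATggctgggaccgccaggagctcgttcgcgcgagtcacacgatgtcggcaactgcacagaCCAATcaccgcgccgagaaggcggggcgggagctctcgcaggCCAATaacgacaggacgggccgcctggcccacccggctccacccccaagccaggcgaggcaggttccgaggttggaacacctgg
STARD4: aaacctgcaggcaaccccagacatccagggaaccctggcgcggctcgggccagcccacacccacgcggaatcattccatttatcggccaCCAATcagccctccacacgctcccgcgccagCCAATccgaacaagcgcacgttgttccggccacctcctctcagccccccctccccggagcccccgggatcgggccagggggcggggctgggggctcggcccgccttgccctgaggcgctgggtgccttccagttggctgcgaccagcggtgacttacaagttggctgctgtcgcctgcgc
SCD: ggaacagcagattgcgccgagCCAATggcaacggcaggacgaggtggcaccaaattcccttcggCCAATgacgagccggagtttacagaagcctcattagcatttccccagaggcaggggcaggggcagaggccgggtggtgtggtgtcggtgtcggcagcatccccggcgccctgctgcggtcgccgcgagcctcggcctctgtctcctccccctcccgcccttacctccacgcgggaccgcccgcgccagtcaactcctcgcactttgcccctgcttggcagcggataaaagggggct
CYB5A: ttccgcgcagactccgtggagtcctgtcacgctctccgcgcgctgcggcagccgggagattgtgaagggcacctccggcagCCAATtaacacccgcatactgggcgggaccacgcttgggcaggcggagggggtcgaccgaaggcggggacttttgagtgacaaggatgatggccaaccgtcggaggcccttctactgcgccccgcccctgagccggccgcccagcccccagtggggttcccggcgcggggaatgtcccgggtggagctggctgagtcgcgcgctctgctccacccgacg

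All 5 genes had at least 1 CCAAT box in this window. *MSMO1* had 4, at 185, 139, 76 and 34 bases before the start site. *HMGCS1* had 2, at 155 and 100 bases, both on the opposite strand. *STARD4* had 2, at 161 and 130 bases, *SCD* had 2, at 229 and 186 bases, and *CYB5A* had 1, at 169 bases. A second annotated start site of *HMGCS1* had none. CCAAT is a short motif: it was found in 34.6% of all 35116 RefSeq promoter windows, in 42.2% of the 9704 measured protein-coding genes with a window, and in 56 of the 100 other measured genes of the lipid lists described below that had one. The boxes were thus present before the genes that were higher and before those that were lower in the siREG4 array. No CCAAT box overlapped another motif searched.

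The Sp1 box GGGCGG, searched on both strands like the other motifs, was also found before all 5 genes. It stood in 45.0% of all windows, in 68.9% of the measured protein-coding genes and in 85 of the 100 other lipid genes. The letters CACCCCAC, the core of a classical sterol regulatory element, were not in any of the 5 windows (0 genes) and stood in 2.79% of all promoter windows, in 3.95% of the measured protein-coding genes and in 8 of the 100 other lipid genes. A looser form, TCACNCCAC, was likewise in 0 of the 5 in 1.13% of all windows and in 5 of the 100 other lipid genes. The E-box CACGTG (7.26% of all windows) and the GATA site AGATAA (10.3%) were in 0 of the 5. These are matches of letters in a short window and not mapped binding sites.

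**Figure D1:**
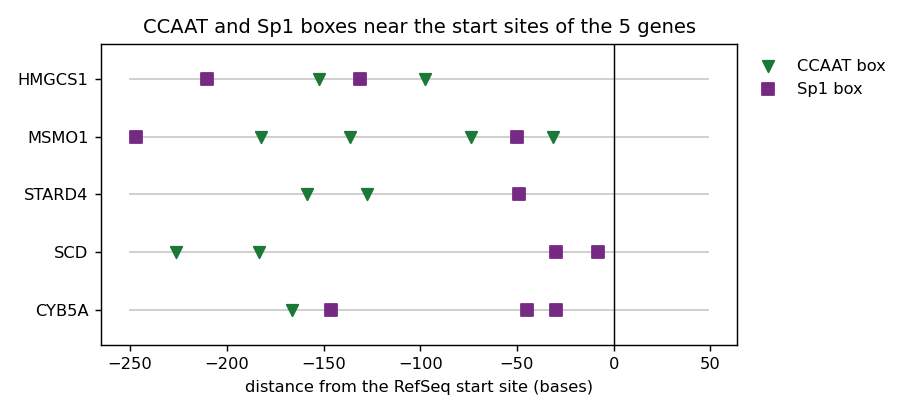
CCAAT boxes (triangles) and Sp1 boxes (squares) near the first annotated start site of each gene, drawn by distance from that site in bases (0, vertical line). *MSMO1* has 4 CCAAT boxes, *HMGCS1*, *STARD4* and *SCD* have 2 each and *CYB5A* has 1.

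*HMGCS1* and *MSMO1* were higher in the siREG4 array. *HMGCS1* encodes the cytosolic HMG-CoA synthase, which joins acetyl-CoA to acetoacetyl-CoA. Its value was 0.31 in the siREG4 array and -0.31 in the siControl array, a difference of 0.61 or 1.53-fold. *MSMO1*, which encodes the methylsterol monooxygenase that begins removal of methyl groups from lanosterol-derived sterols, had 0.29 in the siREG4 array and -0.29 in the siControl array. Its difference was 0.58 (1.5-fold higher). The 2 genes were thus close to each other in size, and both came from a single probe set.

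*STARD4*, *CYB5A* and *SCD* were lower. *STARD4*, a soluble START domain protein that moves cholesterol between membranes, had -0.30 in the siREG4 array and 0.30 in the siControl array, a difference of -0.61 (1.53-fold lower). *CYB5A* had the widest difference of the 5 genes, with -0.53 in the siREG4 array and 0.53 in the siControl array. It was 2.09-fold lower (-1.06), rank 9 from the lowest of 14812 genes. *STARD4* held rank 110 from the lowest, *HMGCS1* rank 118 and *MSMO1* rank 141 from the highest. *STARD4* and *HMGCS1* lay at almost the same distance from 0, on opposite sides.

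*SCD* was read by 2 probe sets, and they differed in size. The first had -0.32 in the siREG4 array and 0.32 in the siControl array, a difference of -0.65 (1.57-fold lower). The second had -0.11 in the siREG4 array and 0.11 in the siControl array, a difference of -0.22 (1.16-fold lower). Both were lower, and their mean of -0.43 (1.35-fold lower) was the value used for the gene. The annotation gives no strand for probe sets. *SCD* lies on the plus strand, and of the 6 named probe sets nearest in number to the first one, 5 belonged to genes of the plus strand. All 6 nearest to the second belonged to genes of the minus strand. What the second probe set reads was not tested.

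**Figure D2:**
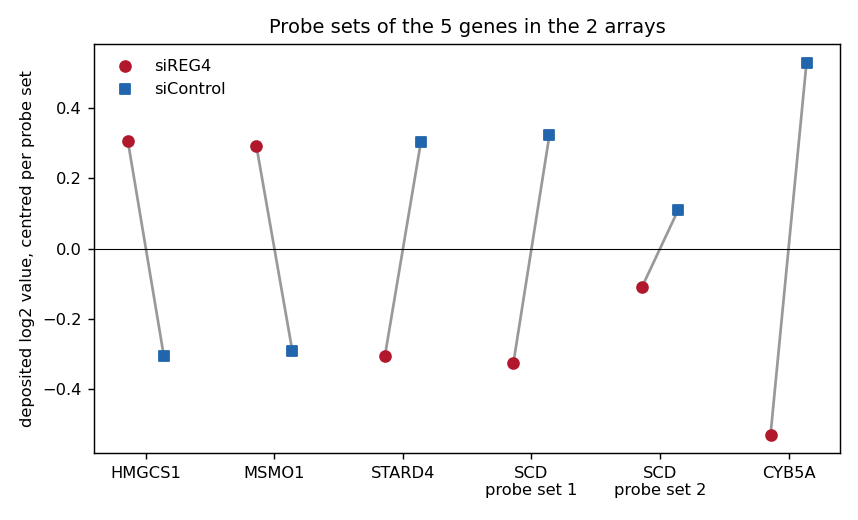
Deposited value of each probe set, centred per probe set and taken as log2. The siREG4 array is drawn left (circles) and the siControl array right (squares), with 1 array per group. *HMGCS1* and *MSMO1* are higher in the siREG4 array, and *STARD4*, both probe sets of *SCD* and *CYB5A* are lower.

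At 1.4-fold, which the methods of the study name for decreases and which was used here in both directions, 2 of the 5 genes were higher (*HMGCS1* and *MSMO1*) and 2 were lower (*STARD4* and *CYB5A*). *SCD* fell short of it. Over all 14812 named genes, 1.51% were higher and 1.67% lower past 1.4-fold, or 3.19% in either direction. The 5 genes had been picked with these differences known, so nothing follows from that contrast. With a single difference per gene, likeness of pattern is only nearness of that difference. The protein-coding genes nearest to *HMGCS1* were *TEAD2* (0.61) and *SIPA1L2* (0.61), with 51 genes within 0.05 of it. For *MSMO1* they were *DDIT3* (0.58) and *SMURF1* (0.59), with 63 genes that near. For *STARD4* they were *CENPU* (-0.61) and *CDK1* (-0.61), with 71. *SCD* had *PYCARD* (-0.43) and *RNF13* (-0.43), with 232 genes that near. *CYB5A* lay in a sparse range, with 6 genes within 0.05, of which *IL17RB* and *E2F8* (each -1.09) were the nearest.

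**Figure D3:**
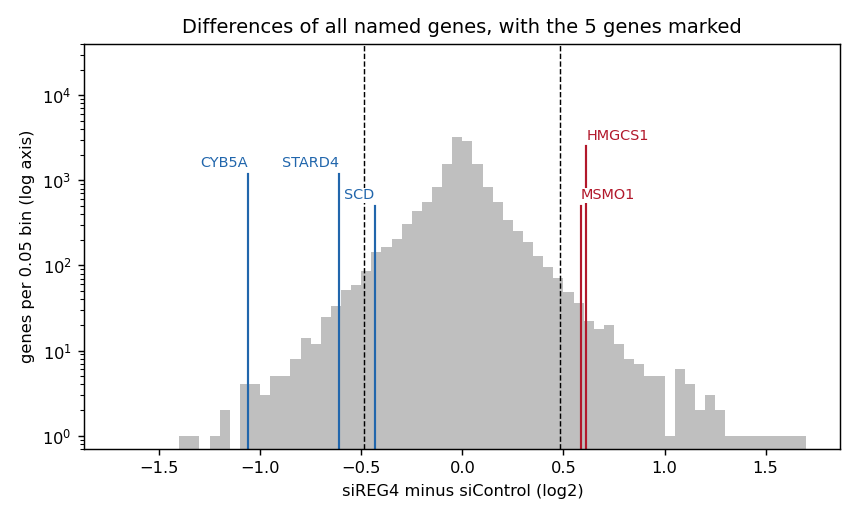
Number of named genes per bin of 0.05 in the siREG4 minus siControl difference (log2), on a log axis, with the 5 genes marked and dashed lines at 1.4-fold. *CYB5A*, at -1.06, stands in the thin lower tail, and *SCD*, at -0.43, lies inside the dashed lines.

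The other enzymes of cholesterol synthesis showed no common direction of that size. In the list of the mevalonate pathway, 8 of 10 genes were measured, of which 5 were higher and 3 lower, and *HMGCS1* was the sole gene past 1.4-fold. The list median was 0.05, against 0.0 over all named genes. Next to *HMGCS1* came *MVK* (0.30), the mevalonate kinase, whereas the kinase of the following step, *PMVK*, had the lowest value at -0.29. *MVD*, the decarboxylase after it, was at -0.03. *IDI1*, the isomerase of the isoprenoid unit and a frequently used SREBP target, was at 0.16. *FDPS*, the farnesyl diphosphate synthase, was at 0.07 as the mean of probe sets at 0.25 and -0.11. It has pseudogenes, as *HSD17B7* and *SCD* do, and signal can be shared with them. Whether signal was shared with pseudogenes was not tested here for any gene.

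From squalene to cholesterol, 10 of 15 genes were measured. Of these, 7 were higher and 3 lower, with a median of 0.06, and *MSMO1* alone passed 1.4-fold. *NSDHL* and *HSD17B7*, which act with MSMO1 on the same methyl groups, were at 0.01 and -0.22. *ERG28*, the scaffold that holds these enzymes together, was second highest in the list at 0.33. *SQLE*, the squalene epoxidase that limits flux in this stretch, was at 0.11. *LBR*, a nuclear envelope protein with sterol reductase activity, was lowest at -0.44, while *TM7SF2*, the other enzyme with that activity, was at 0.17. The measured enzymes just before and after *HMGCS1* and *MSMO1* in the pathway all lay closer to 0 than these genes did.

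**Figure D4:**
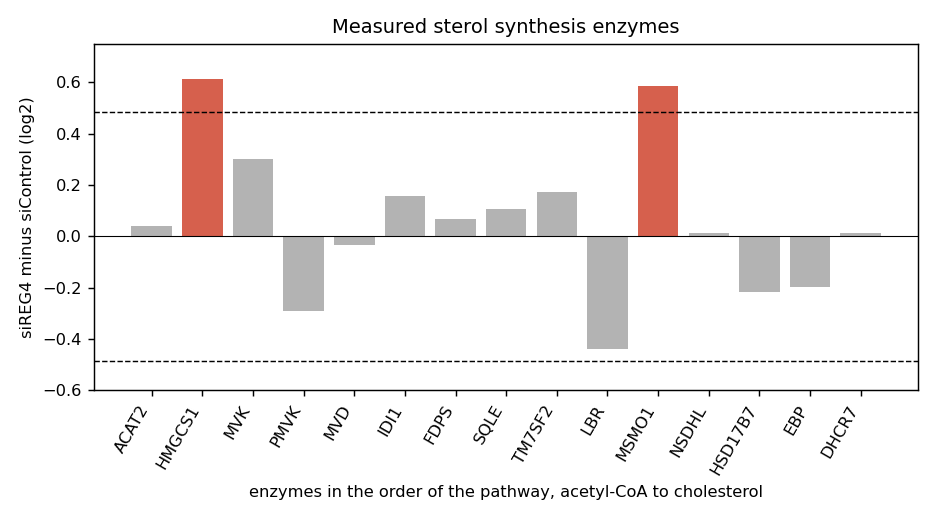
Difference between the siREG4 and siControl arrays (log2) for the measured enzymes of cholesterol synthesis in pathway order, with dashed lines at 1.4-fold. *HMGCS1* (0.61) and *MSMO1* (0.58) stand out above neighbours that lie between -0.44 (*LBR*) and 0.30 (*MVK*).

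Genes that control SREBP also differed both ways. Of the 10 measured of 15, 6 were higher and 3 were lower, with a median of 0.09, and 1 was at 0. *INSIG1*, the sterol-induced anchor of SCAP and itself an SREBP target, was highest at 0.45, followed by the ubiquitin ligase *RNF139* (0.19). *ERLIN1*, a cholesterol-binding protein of the endoplasmic reticulum, was 1.61-fold lower (-0.69) and the sole gene of this list past 1.4-fold. *RNF145*, another ligase of that membrane, was at -0.24. The mRNAs of SREBP themselves were close together, with *SREBF1* at 0.16 and *SREBF2* at 0.15. *INSIG1* thus lay nearer to *HMGCS1* and *MSMO1* than either *SREBF* gene did.

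Of the genes for uptake and export of sterol, 7 of 21 were measured. *TMEM97*, a sterol-regulated membrane protein known as the sigma-2 receptor, was 1.54-fold lower (-0.62), close to *STARD4*. The other 6 lay between -0.04 for *APOE* and 0.13 for *VLDLR*, with *MYLIP*, a ubiquitin ligase, at 0.07. Among genes known as SREBP targets, *HMGCS1*, *MSMO1*, *INSIG1* and *IDI1* lay above 0, and *STARD4* and *TMEM97* lay below it. This is not a full list of such targets, and *HMGCS1*, *MSMO1* and *STARD4* had been chosen with their differences known. Nothing follows from it about SREBP targets in general, and SREBP activity was not tested.

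*STARD4* was the lowest of the 28 measured genes of START domain and other sterol transfer proteins (31 listed), and the sole gene past 1.4-fold. Among these genes, 16 were lower and 12 higher, with a median of -0.0032. *STARD5*, another soluble sterol carrier, was at 0.09, and *STARD6* was at -0.0027. *STAR*, which feeds cholesterol to mitochondria in steroid-producing cells, was at -0.0021, and *STARD3*, which tethers endosomes, was at 0.21. *GRAMD1B*, which moves cholesterol from the plasma membrane to the endoplasmic reticulum, was second lowest at -0.43, followed by the phosphatidylcholine carrier *STARD7* at -0.37. *OSBPL8* (0.41) and *OSBPL2* (0.37), members of the oxysterol-binding protein family, were the highest.

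*SCD* was the lowest of the 16 measured desaturation and elongation genes (22 listed), none of which passed 1.4-fold (0 genes). Of these, 10 were lower and 6 higher, with a median of -0.01. The second human stearoyl-CoA desaturase gene, *SCD5*, was at 0.04. The front-end desaturases *FADS1* and *FADS2*, which also take electrons from cytochrome b5-type domains, were both at -0.09, and *FADS3* was at -0.0053. *HACD3*, a dehydratase of the elongation cycle, was second lowest at -0.31. *ELOVL6*, which lengthens the fatty acids that SCD acts on, was at -0.21, and *ELOVL7* was at -0.23. *FA2H* (0.10), a fatty acid hydroxylase, and *ELOVL2* (0.04) were the highest.

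Upstream of the desaturases, the genes of fatty acid synthesis had a median of -0.0027 over 8 measured of 13, with 0 past 1.4-fold. *ACLY* and *ACSS2*, which produce cytosolic acetyl-CoA from citrate and from acetate, were the highest, at 0.28 each. *FASN*, the fatty acid synthase, was at 0.07 and *ACACA*, the acetyl-CoA carboxylase, at -0.0055. *MECR* (-0.04) and *MID1IP1* (-0.03) were the lowest. None of them came near the difference of *SCD*.

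*CYB5A* was the lowest of 13 measured genes of cytochrome b5 electron transfer (15 listed). In this list 11 genes, the chosen *CYB5A* among them, were lower and 2 were higher, while 48.0% of all named genes were higher. The median was -0.11, with or without *CYB5A*. Apart from *CYB5A*, *CYB5D2* and *MTARC1*, the genes of this list lay within the -0.22 to 0.30 of the keratin-associated protein genes. *CYB5A* was the sole gene past 1.4-fold, and the next lowest, *CYB5D2*, was at -0.25. *CYB5R3*, the NADH reductase that loads cytochrome b5, was at -0.17, and *CYB5B*, the form of the mitochondrial outer membrane, was at -0.12. The reductases *CYB5R2* and *CYB5R1* were at -0.13 and -0.11. *MTARC1*, a mitochondrial partner of CYB5B in amidoxime reduction, was at -0.23. *NENF* (0.05) and *CYB5R4* (0.03) were the highest. Of the genes whose enzymes receive electrons from cytochrome b5, *MSMO1* was higher and *SCD* lower, but both had been chosen with these differences known. Nothing follows from them about such enzymes in general, and *SCD5* was at 0.04.

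In the remaining lists, 0 genes passed 1.4-fold by the mean of their probe sets. Genes of fatty acid activation and glycerolipid synthesis had a median of 0.06 over 16 measured of 27, with 12 higher and 4 lower. The phosphatidate phosphatase *LPIN1* (0.32) and the acyl-CoA synthetase *ACSL1* (0.28) were the highest, and the lipases *MGLL* (-0.35) and *PNPLA2* (-0.04) the lowest. Genes of fatty acid oxidation and ketogenesis had a median of -0.13 over 12 measured of 30, with 7 lower and 5 higher. The nuclear receptor *PPARA* (-0.31) and the carnitine acyltransferase *CPT2* (-0.29) were the lowest, and *PPARD* (0.21) and the thiolase *ACAA2* (0.06) the highest. The value of *CPT2* is the mean of probe sets at -0.55 and -0.02, and by the first of them it was past 1.4-fold.

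Over the 10 lists together, 128 of 199 genes were measured. Without *HMGCS1*, *MSMO1*, *STARD4*, *SCD* and *CYB5A*, the remaining 123 had a median of -0.0021, with 62 lower and 59 higher. Of them, 2 (1.63%) were lower past 1.4-fold (*ERLIN1* and *TMEM97*) and 0 were higher. With the first probe set per gene, 3 were lower, *CPT2* among them. The share that was lower was close to the 1.67% of all named genes, and 1.51% of all named genes were higher.

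**Figure D5:**
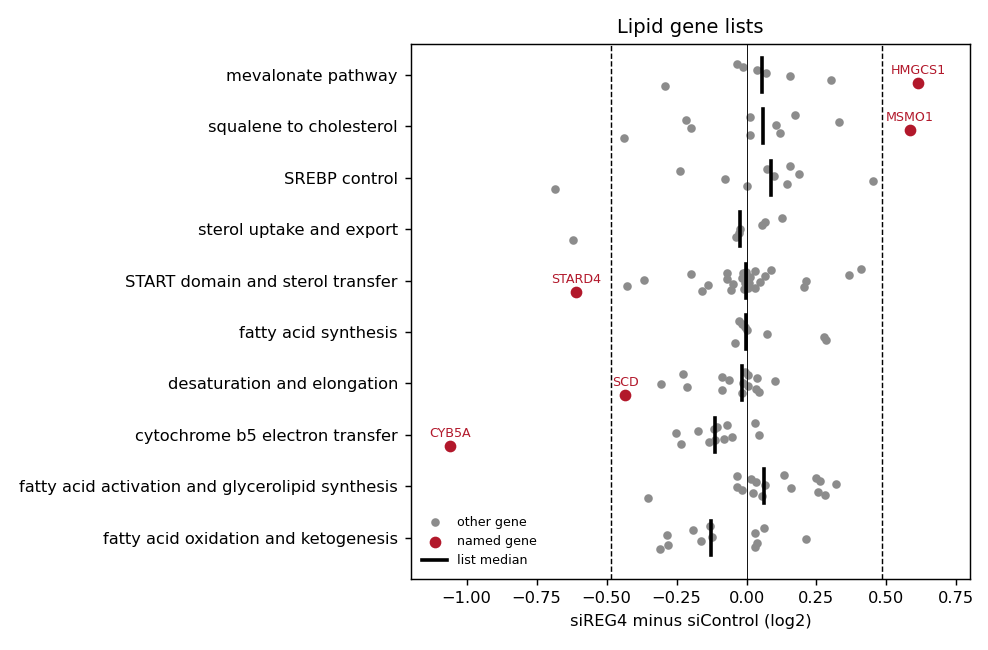
Difference between the siREG4 and siControl arrays (log2) for each measured gene of 10 lipid lists, with *HMGCS1*, *MSMO1*, *STARD4*, *SCD* and *CYB5A* in red, list medians as vertical bars and dashed lines at 1.4-fold. List medians lie between -0.13 and 0.09, and apart from the named genes only *ERLIN1* (-0.69) and *TMEM97* (-0.62) are past the dashed lines.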

How the data were processed

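Per the methods of the study, HT29 total RNA was prepared with the GeneChip WT PLUS kit for Affymetrix Human Gene ST arrays, and the data were evaluated in GeneSpring. The authors deposited log2 values centred per probe set for 44629 probe sets, with column medians of 0.0. The sources used here do not give their background correction, summarization, between-array normalization or log base. The log base was taken as 2. A platform annotation named 15835 probe sets with 1 gene symbol each and left 28794 unnamed. All 15835 matched a RefSeq gene by gene ID. Probe sets of a gene were averaged, and siREG4 minus siControl was computed with Python 3.11.15, numpy 2.4.6 and pandas 2.3.3 (figures: matplotlib 3.10.9). The averaging and counting were tested on simulated data. With 1 array per group there was no test, and precision is limited by the number of arrays.

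The 5 genes, the 10 lipid lists and the motifs were chosen with earlier results of these data known. The text names the 5 genes, their nearest genes and relatives, and from each list the 2 lowest, the 2 highest and all genes past 1.4-fold. Other list genes were named after their values were seen. Motif matches were counted in RefSeq promoter windows (GRCh38.p14). Alternatives were quantile normalization, other choices of probe set, thresholds of 1.2-fold and 2-fold, protein-coding genes only, means, and lists without the 5 genes. The probe set of *SCD* by strand and lists without genes at 0 were added after seeing the data.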

Additional observations from a re-analysis of the deposited data

How the results depend on the processing

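The direction of all 5 genes was the same under each alternative run, but none of the alternatives could have reversed it. The values of the 2 arrays mirror each other, so quantile normalization can change a difference in size but cannot reverse one far from 0. Both probe sets of *SCD* were lower, so a choice between them could not reverse it either. *SCD* depended on the probe set: it was -0.65 by the first probe set, also the one among genes of its own strand, which puts it past 1.4-fold and makes 3 of the 5 genes lower, and -0.22 by the probe set nearest to 0. *CYB5A* was -1.18 after quantile normalization, and none of the 12 remaining values moved by 0.1 or more. *HMGCS1*, *MSMO1*, *STARD4* and *CYB5A* have 1 probe set each, so the choice of probe set could not change their values. For these genes only quantile normalization could have changed the size of the difference. With the first probe set per gene, 3 in place of 2 of the other lipid genes were lower past 1.4-fold, with *CPT2* (-0.55) added. A 2-fold threshold left 1 of the 5 genes lower and 0 higher, with 13 lower and 26 higher over all genes, and a 1.2-fold threshold gave 1043 lower and 882 higher. The 50 list medians recomputed moved by 0.08 at most, and 1 changed sign (fatty acid synthesis, 0.07 by its mean). No paired analysis was possible because each group has 1 array. All values rest on single arrays with no signal level, so dim and bright probe sets could not be told apart.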

Other observations

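The split between the probe sets of *SCD* was not particular to it. Among 9938 genes with 1 probe set and enough named neighbours, 99.7% had a probe set whose neighbours by number lay mostly on the strand of the gene. In 268 genes with 2 probe sets, 1 lay among genes of its own strand and 1 among genes of the other strand. The probe set among genes of the other strand was nearer to 0 in 178 of them (66.4%), with a median size of difference of 0.04, against 0.08 for the probe set among genes of its own strand. In 9 of these genes the probe set among its own strand was past 1.4-fold, and the other was past it in the same direction in 0. Over all named genes 3.19% were past 1.4-fold in either direction, so a count of 0 among 9 says little about the other probe sets. Besides *SCD*, this concerns *CPT2* in the lists above (-0.55 among its own strand and -0.02 among the other), *FDPS* (0.25 and -0.11), *PNPLA2* (-0.11 and 0.04) and *MID1IP1* (-0.08 and 0.02). In these 5 genes the probe set among the other strand was the one nearer to 0. By arithmetic, the average over both was then also nearer to 0 than the probe set among its own strand. Which transcript the other probe set reads was not tested.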
